A study of Mus musculus with 8 samples.

Results

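Proximal T cell receptor signalling is described here by 39 genes, which encode the CD3 chains and co-receptors, the first kinases, the enzymes that set those kinases, the adaptors, the proteins that damp the signal and the first effectors. The members were chosen by name, with earlier results of these data known, so counts of calls among them are not those of an unbiased list. Each was read from the transcript cluster that bears its symbol in the array annotation. A transcript cluster joins the probes that lie in the exons of 1 gene. Of the 39, 38 had 1 cluster each among 22206 clusters, of which 19572 bear 1 symbol and stand for 19505 genes. *Lck*, which encodes the kinase bound to both co-receptors, was not analysed here, because no cluster bears its symbol.

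Total RNA from mouse spleens was hybridised to 1-colour Clariom S HT arrays. There were 4 splenic samples from lymphoma-bearing animals and 4 control samples, each on 1 array. Where n is given below, it counts arrays. The lymphoma group has the genotype Trp53KI/KI;Vav1DC/DC and the control group Trp53KI/KI, all on the C57BL/6 background. Both groups therefore carry the *Trp53* knock-in, whose protein product is mostly inactive without 4-hydroxytamoxifen. Only the lymphoma group carries the *Vav1* allele, which was edited at its own locus, is present in every cell and encodes a VAV1 protein truncated in the C-terminal SH3 domain. Among the arrays, no group carries the *Vav1* allele without lymphoma, so the disease and the allele cannot be told apart. The age of the animals and a hybridisation batch are not given in the sources used here. The labels give no sex. The methods state for the in vivo work in general that females were used, while the paper also followed males and females with the *Vav1* allele alone. Y-linked genes, described further on, gave signal in both groups, and the sex of these animals is not settled. Nothing states that the arrays are separate animals, and the p-values can therefore speak only of the spread among these samples, which may be technical.

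The receptor on a T cell has no enzyme of its own. When it binds peptide on an MHC molecule, LCK and FYN phosphorylate the CD3 chains, ZAP70 docks there and phosphorylates the adaptor LAT, and LAT gathers PLCG1, whose product diacylglycerol activates RASGRP1 and PKC theta. CSK, phosphatases, ubiquitin ligases and diacylglycerol kinases restrain these steps, and VAV1 itself is recruited to the LAT complex.

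All values are on the log2 scale of the robust multichip average (RMA), and changes are lymphoma minus control. Calls were made with limma where the two-sided adjusted p reached 0.05 or less, with Benjamini-Hochberg adjustment over all 22206 clusters. Among the 38 members, 10 were called higher and 14 lower in lymphoma spleens, and 14 were not called. Members called higher were 26.3% of the 38, against 18.2% of all clusters, and members called lower were 36.8%, against 17.2% of all clusters. Those shares of all clusters are the comparison for every count of calls by role or marker list below, where the lists are short. The values of the groups did not overlap in 11 members with higher and 14 with lower values in lymphoma, against 18.0% and 16.7% of all clusters. A call with a change of at least 2-fold was reached upwards by 1 member, *Cd6*, and downwards by 3, *Tespa1*, *Trat1* and *Dgka* (3.03% and 0.680% of all clusters). The median change of the members was -0.14, and that of all clusters was -0.06. Member values lay between 6.12 and 13.08, all above the highest median of the background probe sets of an array, 4.94. That is a low bar, since the median of all clusters on an array lay between 7.19 and 7.24. Some member values, such as those of *Trat1* in lymphoma spleens, lay below that median. In RNA from whole spleens, fewer cells of a type and less RNA per cell cannot be told apart.

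**Figure D1:**
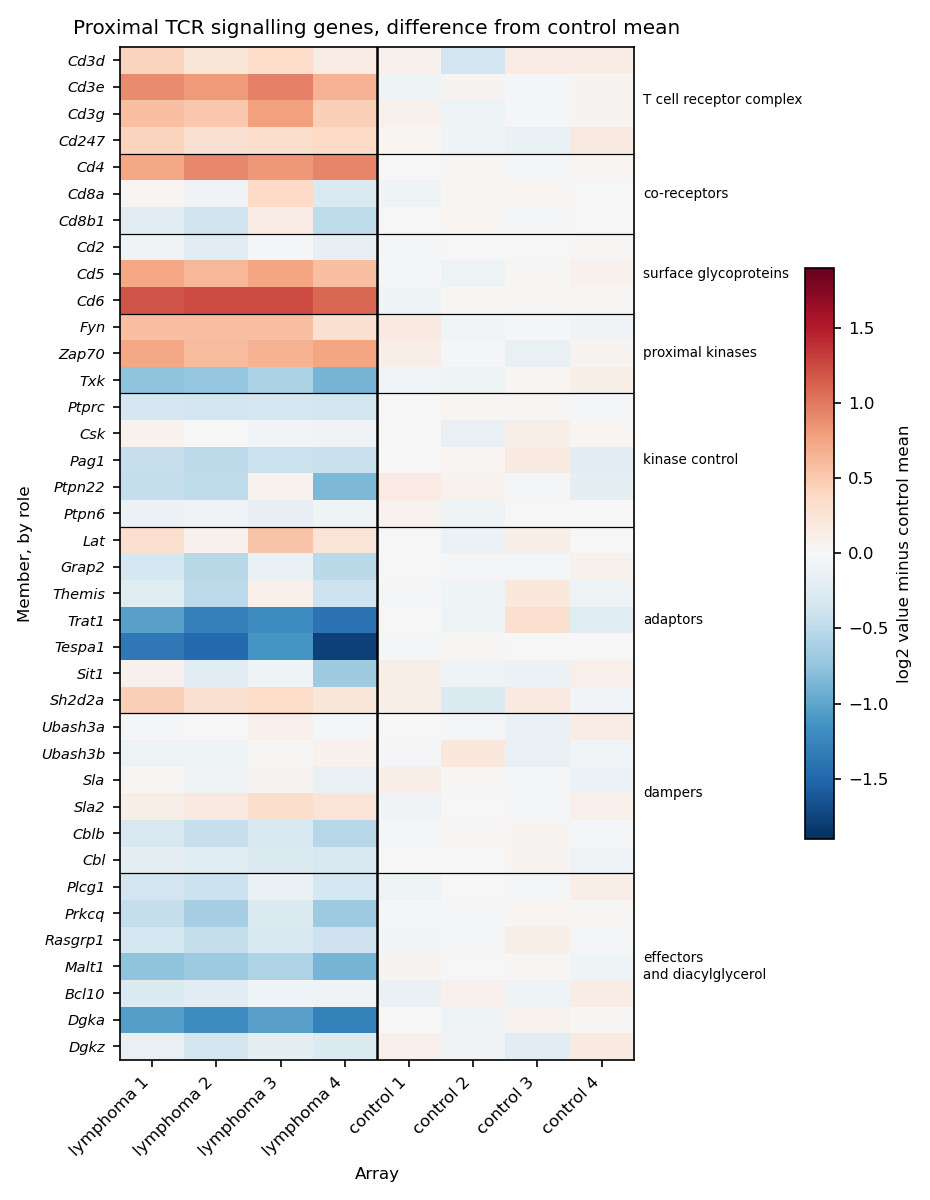
Each cell is the log2 value of a member on an array minus the control mean of that member, with lymphoma arrays 1 to 4 on the left, control arrays 1 to 4 on the right and members grouped by role. The CD3 chains, *Cd4*, *Cd5* and *Cd6* are red on the lymphoma arrays, and *Tespa1*, *Trat1*, *Dgka* and *Malt1* are blue.

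Of the 4 genes of the receptor complex, *Cd3e*, *Cd3g* and *Cd247* rose and *Cd3d* was not called. The changes lay between 0.29 and 0.83. CD3 epsilon, encoded by *Cd3e*, was at 10.85, 10.77, 10.91 and 10.61 in lymphoma spleens, against 9.87, 10.00, 9.93 and 10.00 in control spleens. Every lymphoma array lay above every control array, a change of 0.83 (SE 0.08, adjusted p = 5.39e-06). *Cd3g*, which encodes CD3 gamma, was at 10.23, 10.18, 10.44 and 10.12 in lymphoma spleens, against 9.75, 9.57, 9.62 and 9.72 in control spleens. The groups were again apart, with a change of 0.58 (SE 0.09, adjusted p = 1.93e-04). The zeta chain gene *Cd247* was at 8.92, 8.80, 8.84 and 8.88 in lymphoma spleens, against 8.53, 8.42, 8.37 and 8.68 in control spleens, with no overlap and a change of 0.36 (SE 0.08, adjusted p = 0.00479). *Cd3d*, which encodes CD3 delta, was at 9.62, 9.43, 9.55 and 9.34 in lymphoma spleens, against 9.28, 8.83, 9.34 and 9.34 in control spleens. Control array 2 was low, and the lowest lymphoma array lay only just above the highest control array. Its change of 0.29 (SE 0.12, adjusted p = 0.0692) did not pass the threshold, and the 95% interval of the change ran from 0.04 to 0.54. With an intensity trend and robust moderation of the variances, *Cd3d* was called as higher (adjusted p = 0.0269), as it was without the dimmest 50% of clusters (0.0371).

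The starts of the 4 CD3 genes and of *Trat1* and *Dgka*, the members with the largest falls for which a window was at hand, are shown to set the receptor chains, of which all but *Cd3d* were called higher, beside genes that fell. Each is the 200 bases before the annotated start in RefSeq (GRCm38.p6), read 5′ to 3′ on the strand of the gene. Capitals mark matches on either strand to AGGAAG, which holds the core of ETS sites, or to TGTGGT, which holds the core of RUNX sites. Both families of factors are known in T cells.
Cd3g: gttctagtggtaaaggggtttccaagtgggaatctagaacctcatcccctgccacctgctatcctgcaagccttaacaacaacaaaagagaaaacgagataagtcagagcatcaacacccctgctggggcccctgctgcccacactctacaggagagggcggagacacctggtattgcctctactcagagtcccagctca
Cd3d: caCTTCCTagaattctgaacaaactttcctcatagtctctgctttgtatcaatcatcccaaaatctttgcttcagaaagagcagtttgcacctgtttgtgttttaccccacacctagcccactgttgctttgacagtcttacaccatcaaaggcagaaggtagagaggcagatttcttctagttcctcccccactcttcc
Cd3e: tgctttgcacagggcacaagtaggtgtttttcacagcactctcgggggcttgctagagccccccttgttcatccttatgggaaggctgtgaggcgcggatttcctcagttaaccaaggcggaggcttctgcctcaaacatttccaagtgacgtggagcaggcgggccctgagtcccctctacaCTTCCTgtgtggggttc
Cd247: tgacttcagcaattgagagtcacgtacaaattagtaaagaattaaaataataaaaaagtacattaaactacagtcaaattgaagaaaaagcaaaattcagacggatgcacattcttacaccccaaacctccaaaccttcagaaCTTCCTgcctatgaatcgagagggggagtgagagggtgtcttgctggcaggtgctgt
Trat1: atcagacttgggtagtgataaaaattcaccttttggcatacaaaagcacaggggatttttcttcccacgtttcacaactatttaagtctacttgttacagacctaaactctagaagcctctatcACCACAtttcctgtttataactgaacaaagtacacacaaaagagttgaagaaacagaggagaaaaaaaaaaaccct
Dgka: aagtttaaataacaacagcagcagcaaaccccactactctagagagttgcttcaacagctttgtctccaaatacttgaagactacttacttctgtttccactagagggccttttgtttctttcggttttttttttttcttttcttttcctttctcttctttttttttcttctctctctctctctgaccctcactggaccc
The windows lie at chr9:44980432-44980631 (minus strand) for *Cd3g*, chr9:44981586-44981785 (plus) for *Cd3d*, chr9:45009612-45009811 (minus) for *Cd3e*, chr1:165788481-165788680 (plus) for *Cd247*, chr16:48772063-48772262 (minus) for *Trat1* and chr10:128745085-128745284 (minus) for *Dgka*, whose window is the first of 4. *Cd3g* and *Cd3d* start 1355 bases apart and point away from each other, and *Cd3e* starts 27825 bases from *Cd3d*. Of the neighbours, *Cd3e* and *Cd3g* were called and *Cd3d* was not, and a difference between their changes was not tested. The ETS letters begin 198 bases before the start in *Cd3d*, 17 in *Cd3e* and 57 in *Cd247*, and the RUNX letters 76 bases before it in *Trat1*. Neither of these runs of letters occurs in the windows shown for *Cd3g* and *Dgka*.

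RefSeq windows were at hand for 29 of the 38 members. The ETS letters occur in 16 of these 29 first windows (55.2%), against 24.7% of 32851 windows of the same length over all genes, some of which overlap. They occur in 5 of 7 windows of members called higher, in 5 of 11 of members called lower and in 6 of 11 of members not called. They are thus found in genes that rose (*Zap70*, *Lat*, *Cd5*) as well as in genes that fell (*Txk*, *Ptprc*, *Prkcq*, *Ptpn22*, *Cblb*). The RUNX letters occur in 2 of the 29 windows (6.90%), those of *Trat1* and *Sla2*, against 11.2% of all windows. GTAAACA, a form of the FOXO site, occurs in 1 window (3.45%), that of *Grap2*, against 2.51% of all windows. A match is a run of letters and was not measured as a bound site.

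Of the co-receptors, *Cd4* rose and both CD8 genes were not called. CD4 binds MHC class II and CD8, a pair of alpha and beta chains, binds class I. *Cd4* was at 9.84, 10.03, 9.93 and 10.04 in lymphoma spleens, against 9.09, 9.12, 9.07 and 9.15 in control spleens. This was a change of 0.85 (SE 0.08, adjusted p = 1.89e-06), or 1.80-fold, with the lymphoma arrays close together. *Cd8a* was at 9.69, 9.60, 10.03 and 9.38 in lymphoma spleens, against 9.57, 9.68, 9.70 and 9.67 in control spleens. Lymphoma array 3 was above and array 4 below every control array, the lymphoma SD was 0.27 against 0.06 in control spleens, and the change was 0.02 (SE 0.12, adjusted p = 0.924), with a 95% interval from -0.23 to 0.27. After cyclic loess normalisation or equal array medians the change of *Cd8a* was -0.022 and -0.010, and its direction is not settled. *Cd8b1*, which encodes the beta chain, was at 9.62, 9.43, 9.96 and 9.33 in lymphoma spleens, against 9.80, 9.86, 9.79 and 9.82 in control spleens. The same lymphoma array 3 lay above all control arrays and the other 3 below them. Its change of -0.23 (SE 0.12, adjusted p = 0.148) was not called, but became -0.35 (limma adjusted p = 0.00981) without lymphoma array 3.

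**Figure D2:**
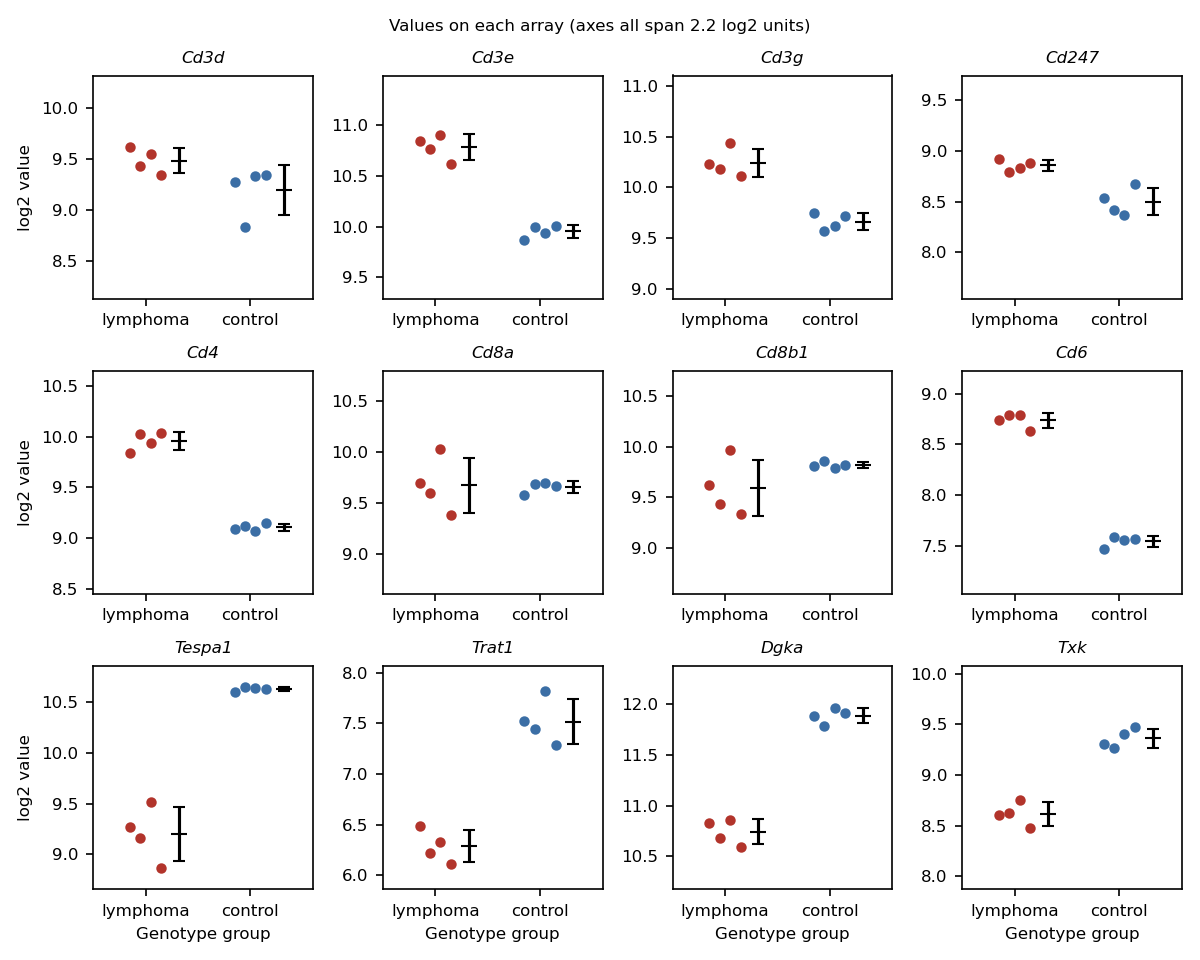
Points are the log2 values on lymphoma arrays 1 to 4 (left, red) and control arrays 1 to 4 (right, blue) of 12 members, and black marks give the mean and SD. *Cd4* and *Cd6* are separated upwards and *Tespa1*, *Trat1*, *Dgka* and *Txk* downwards, whereas *Cd8a* and *Cd8b1* spread widely in the lymphoma group and overlap with the controls.

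Of the surface glycoproteins, *Cd5* and *Cd6* rose and *Cd2* was not called. CD5 and CD6 are related scavenger receptor proteins that tune the strength of the signal, and CD2 is an adhesion receptor. *Cd6* was at 8.74, 8.79, 8.79 and 8.63 in lymphoma spleens, against 7.46, 7.59, 7.56 and 7.56 in control spleens. It was 2.29-fold higher in lymphoma spleens, a change of 1.19 (SE 0.07, adjusted p = 9.42e-08), the largest rise of the 38 members. *Cd5* was at 9.57, 9.47, 9.59 and 9.42 in lymphoma spleens, against 8.82, 8.74, 8.87 and 8.93 in control spleens. The groups did not overlap, and the change was 0.67 (SE 0.08, adjusted p = 1.93e-05). *Cd2* was at 9.60, 9.45, 9.63 and 9.51 in lymphoma spleens, against 9.64, 9.67, 9.67 and 9.68 in control spleens. All lymphoma arrays lay below the controls, but the change of -0.12 (SE 0.07, adjusted p = 0.237) was small and not called.

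Of the kinases, *Zap70* and *Fyn* rose and *Txk* fell. *Zap70*, the kinase that docks on the phosphorylated CD3 chains, was at 8.18, 8.06, 8.11 and 8.21 in lymphoma spleens, against 7.58, 7.42, 7.31 and 7.50 in control spleens. No array of one group reached the other, and the change was 0.69 (SE 0.08, adjusted p = 2.29e-05). *Fyn*, a Src family kinase present in many leukocytes, was at 9.91, 9.91, 9.92 and 9.63 in lymphoma spleens, against 9.51, 9.28, 9.30 and 9.27 in control spleens. Lymphoma array 4 was low and control array 1 was high for their groups, and the change was 0.50 (SE 0.09, adjusted p = 8.57e-04). TXK, also called RLK, is a TEC family kinase of resting T cells. *Txk* was at 8.60, 8.63, 8.75 and 8.47 in lymphoma spleens, against 9.31, 9.26, 9.40 and 9.48 in control spleens. It fell by 0.75 (SE 0.09, limma adjusted p = 1.59e-05), or 1.68-fold, without overlap.

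Among the proteins that set the Src family kinases, none was higher and 3 of 5 were lower. *Ptprc*, which encodes the phosphatase CD45 of leukocytes, was at 12.73, 12.71, 12.71 and 12.70 in lymphoma spleens, against 13.04, 13.08, 13.06 and 13.00 in control spleens. The groups were apart, and the lymphoma arrays agreed to an SD of 0.01. The change was -0.33 (SE 0.07, adjusted p = 0.00197). *Pag1*, the membrane anchor of CSK, was at 8.35, 8.29, 8.37 and 8.36 in lymphoma spleens, against 8.78, 8.82, 8.95 and 8.59 in control spleens. The groups were apart, with a change of -0.44 (SE 0.09, adjusted p = 0.00135). *Ptpn22*, a phosphatase that acts with CSK on LCK and ZAP70, was at 9.44, 9.41, 9.95 and 9.03 in lymphoma spleens, against 10.05, 9.96, 9.86 and 9.70 in control spleens. Lymphoma array 3 lay within the controls and array 4 lay lowest. The change of -0.43 (SE 0.15, adjusted p = 0.0449) was not called when any 1 of control arrays 1, 2 and 3 or of lymphoma arrays 1, 2 and 4 was left out (adjusted p from 0.0710 to 0.122). *Csk* itself, the kinase that inhibits LCK and FYN, changed by -0.01 (SE 0.08, adjusted p = 0.920), with a 95% interval from -0.18 to 0.16. The phosphatase gene *Ptpn6*, known as SHP-1, changed by -0.10 (SE 0.07, adjusted p = 0.302), and both genes overlapped between the groups.

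The adaptors held the largest fall and went both ways, with 2 of 7 higher, 3 lower and 2 not called. *Tespa1*, an adaptor needed for the development of thymocytes, was at 9.27, 9.16, 9.51 and 8.86 in lymphoma spleens, against 10.60, 10.65, 10.64 and 10.63 in control spleens. The control arrays agreed to an SD of 0.02, and every lymphoma array lay more than 1 unit lower. The fall was 2.69-fold, a change of -1.43 (SE 0.11, adjusted p = 7.63e-07). *Trat1*, which encodes the receptor-associated adaptor TRIM, was at 6.49, 6.23, 6.33 and 6.12 in lymphoma spleens, against 7.52, 7.44, 7.82 and 7.29 in control spleens. The lymphoma values were above the median of the background probe sets but below the median of all clusters on each array (7.22 to 7.24). *Trat1* was 2.34-fold lower, a change of -1.23 (SE 0.12, adjusted p = 3.01e-06). *Grap2*, also called GADS, links LAT to SLP-76. It was at 10.70, 10.51, 10.90 and 10.53 in lymphoma spleens, against 11.03, 11.00, 10.99 and 11.11 in control spleens, with no overlap and a change of -0.37 (SE 0.09, adjusted p = 0.00748).

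*Lat*, the scaffold that ZAP70 phosphorylates, was at 10.25, 10.02, 10.49 and 10.19 in lymphoma spleens, against 9.94, 9.83, 10.06 and 9.93 in control spleens. Lymphoma array 2 lay within the control range. Its change of 0.30 (SE 0.10, adjusted p = 0.0342) was not called without control array 1, 2 or 4 or without lymphoma array 1 or 3 (adjusted p from 0.0622 to 0.102), nor after cyclic loess normalisation (0.0684). *Sh2d2a*, which encodes the LCK-binding adaptor TSAd, was at 8.87 ± 0.10 in lymphoma and 8.55 ± 0.19 in control spleens (SD, n = 4 each). The groups did not overlap, and its change of 0.33 (SE 0.10, adjusted p = 0.0225) was not called without control array 2 or 4 or lymphoma array 1 (adjusted p from 0.0538 to 0.0698). *Themis*, which works in thymocyte selection and binds GRB2, was at 10.22, 9.95, 10.55 and 10.05 in lymphoma spleens, against 10.42, 10.37, 10.65 and 10.36 in control spleens. Only lymphoma array 3 lay inside the control range, and the change of -0.26 (SE 0.12, adjusted p = 0.120) was called without that array, as -0.38 (limma adjusted p = 0.0136). *Sit1*, a transmembrane adaptor that recruits SHP phosphatases, changed by -0.22 (SE 0.14, adjusted p = 0.229), and lymphoma array 4, at 7.04, was its lowest value.

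**Figure D3:**
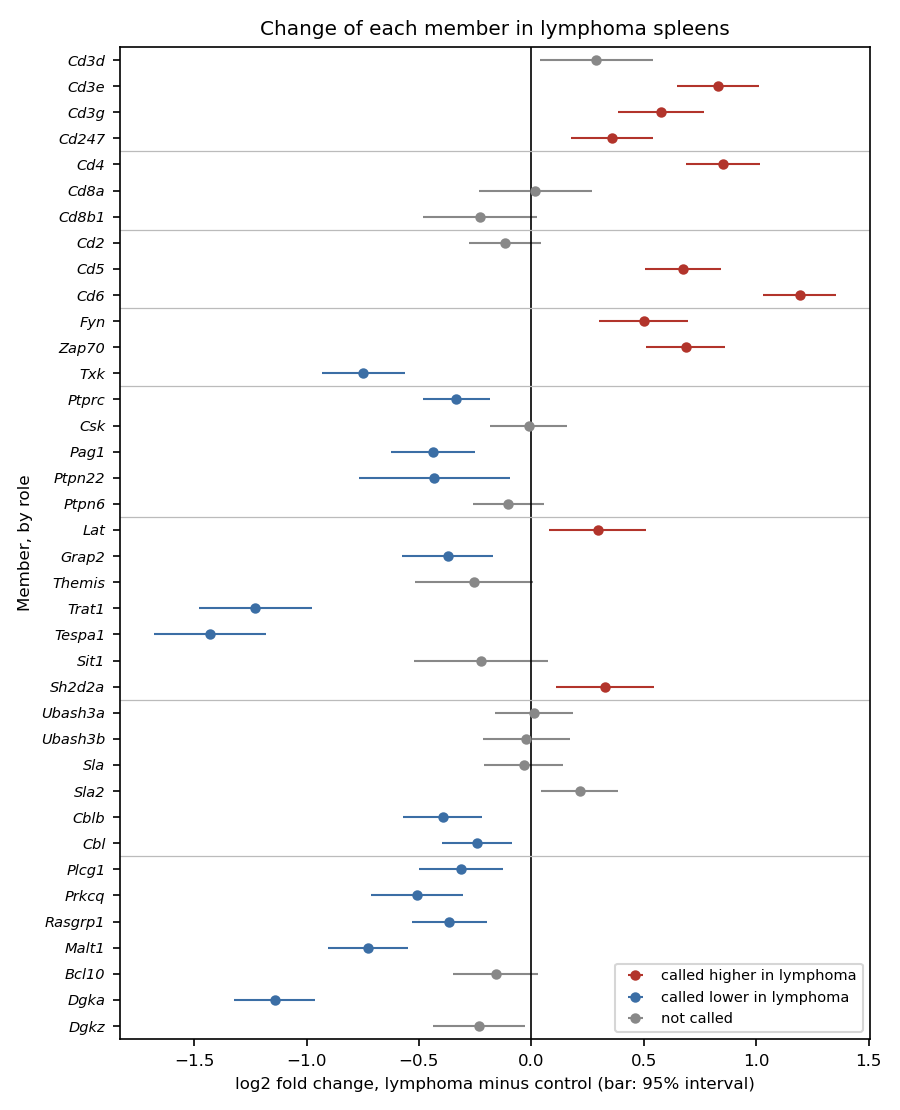
Points are the log2 fold changes of the 38 members, lymphoma minus control, with 95% intervals, grouped by role. Receptor chains stand at the right of 0, effectors and diacylglycerol enzymes at its left, and *Cd6* and *Tespa1* are the extremes.

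Of 6 genes for proteins that damp the signal, 2 fell, none was called as higher and 4 were not called, with a median change of -0.03. The fallen genes encode the ubiquitin ligases. *Cblb* was at 10.44, 10.30, 10.46 and 10.20 in lymphoma spleens, against 10.70, 10.77, 10.79 and 10.71 in control spleens, with no overlap and a change of -0.39 (SE 0.08, adjusted p = 0.00184). *Cbl* was at 9.96, 9.90, 9.89 and 9.84 in lymphoma spleens, against 10.15, 10.15, 10.19 and 10.08 in control spleens, also apart, with a change of -0.24 (SE 0.07, adjusted p = 0.0185). The phosphatase-like STS proteins are encoded by *Ubash3a*, mainly in T cells, and by *Ubash3b*, in many cells. *Ubash3a* was at 8.52, 8.55, 8.64 and 8.50 in lymphoma spleens, against 8.55, 8.51, 8.42 and 8.68 in control spleens. *Ubash3b* was at 9.97, 9.99, 10.08 and 10.15 in lymphoma spleens, against 10.04, 10.27, 9.93 and 10.02 in control spleens. The groups overlapped for both genes, with changes of 0.01 (SE 0.08, adjusted p = 0.933) and -0.02 (SE 0.09, adjusted p = 0.871), and that of *Ubash3a* was -0.013 after cyclic loess and -0.017 with equal array medians. SLAP and SLAP2 lead the receptor to degradation by CBL. *Sla*, which encodes SLAP, was at 10.77, 10.68, 10.81 and 10.60 in lymphoma spleens, against 10.88, 10.78, 10.72 and 10.64 in control spleens, and its change was -0.04 (SE 0.08, adjusted p = 0.774). *Sla2* was at 8.38, 8.43, 8.61 and 8.51 in lymphoma spleens, against 8.20, 8.28, 8.23 and 8.36 in control spleens. Its lymphoma values lay above all control values, and the change of 0.21 (SE 0.08, adjusted p = 0.0511) just missed the threshold. It was called as higher without control array 4 (adjusted p = 0.0448) or lymphoma array 1 (0.0491), and under 4 other alternatives (0.0205 to 0.0455).

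No gene of the effectors and diacylglycerol enzymes was called higher. Of 7, 5 fell, and the median change of the 7 was -0.36. *Dgka*, the kinase that removes diacylglycerol and is abundant in resting T cells, was at 10.83, 10.68, 10.86 and 10.60 in lymphoma spleens, against 11.89, 11.78, 11.96 and 11.91 in control spleens. No lymphoma array came near a control array, and the fall was 2.21-fold, a change of -1.14 (SE 0.08, adjusted p = 3.55e-07). *Dgkz*, which encodes the related zeta enzyme, was at 8.38, 8.17, 8.35 and 8.26 in lymphoma spleens, against 8.62, 8.46, 8.32 and 8.70 in control spleens. Lymphoma arrays 1 and 3 lay above the lowest control array, and the change of -0.23 (SE 0.09, adjusted p = 0.0708) was not called, except without control array 3 (-0.30, limma adjusted p = 0.0248) or with equal array medians (-0.26, adjusted p = 0.0427) or without the dimmest 50% of clusters (0.0345).

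The enzymes activated through diacylglycerol also fell. *Prkcq*, which encodes PKC theta, was at 9.97, 9.79, 10.16 and 9.74 in lymphoma spleens, against 10.40, 10.39, 10.46 and 10.44 in control spleens, a change of -0.51 (SE 0.09, adjusted p = 8.86e-04). *Rasgrp1*, the exchange factor that activates RAS, was at 10.43, 10.31, 10.47 and 10.37 in lymphoma spleens, against 10.71, 10.73, 10.87 and 10.73 in control spleens, a change of -0.36 (SE 0.08, adjusted p = 0.00232). *Plcg1*, the phospholipase that makes diacylglycerol, was at 9.52, 9.48, 9.76 and 9.55 in lymphoma spleens, against 9.80, 9.89, 9.86 and 10.01 in control spleens, a change of -0.31 (SE 0.09, adjusted p = 0.0125). In these 3 genes no lymphoma array reached the lowest control array. *Malt1*, the protease of the complex that leads from PKC theta to NF-kappaB, was at 9.54, 9.61, 9.71 and 9.42 in lymphoma spleens, against 10.35, 10.31, 10.33 and 10.21 in control spleens. It was 1.66-fold lower, a change of -0.73 (SE 0.08, adjusted p = 1.53e-05). *Bcl10*, its partner in that complex, overlapped between the groups and was not called, with a change of -0.16 (SE 0.09, adjusted p = 0.178).

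Related members were then set against each other on the same array, to ask whether their changes differed. There were 6 such pairs, and 4 against 4 arrays cannot give an exact two-sided permutation p below 0.0286, which adjustment over the 6 pairs turned into 0.0571. With all 8 arrays no pair passed the threshold after adjustment. Without lymphoma array 3, 4 of the 6 pairs did, each at an adjusted p of 0.0429 (exact permutation test): *Cd4* minus *Cd8a* (shift 0.96), *Cd6* minus *Cd5* (0.53), *Cblb* minus *Cbl* (-0.19) and *Dgka* minus *Dgkz* (-0.93). The smallest possible p is still 0.0286 there. The adjusted p is lower only because *Cblb* minus *Cbl* also reached that limit, so it is no stronger result for the other pairs. The difference of *Cd4* from *Cd8a* was 0.28 ± 0.33 in lymphoma and -0.55 ± 0.06 in control spleens (SD, n = 4 each), a shift of 0.83 towards *Cd4* (exact permutation p = 0.0286, adjusted p = 0.0571). The lymphoma values ran from -0.09 on array 3 to 0.66 on array 4, and all control values lay between -0.63 and -0.48. *Cd6* minus *Cd5* was -0.78 ± 0.06 in lymphoma and -1.30 ± 0.09 in control spleens (SD, n = 4 each), a shift of 0.52 with the same p-values. *Dgka* minus *Dgkz* was 2.45 ± 0.08 in lymphoma and 3.36 ± 0.19 in control spleens (SD, n = 4 each), a shift of -0.91 with the same p-values. In these 3 pairs the groups did not overlap. The difference of *Sla* from *Sla2* shifted by -0.25 and that of *Cblb* from *Cbl* by -0.15 (exact permutation p = 0.0571 and adjusted p = 0.0686 for both). *Ubash3b* minus *Ubash3a* shifted by -0.03 (exact permutation p = 0.714, adjusted p = 0.714).

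**Figure D4:**
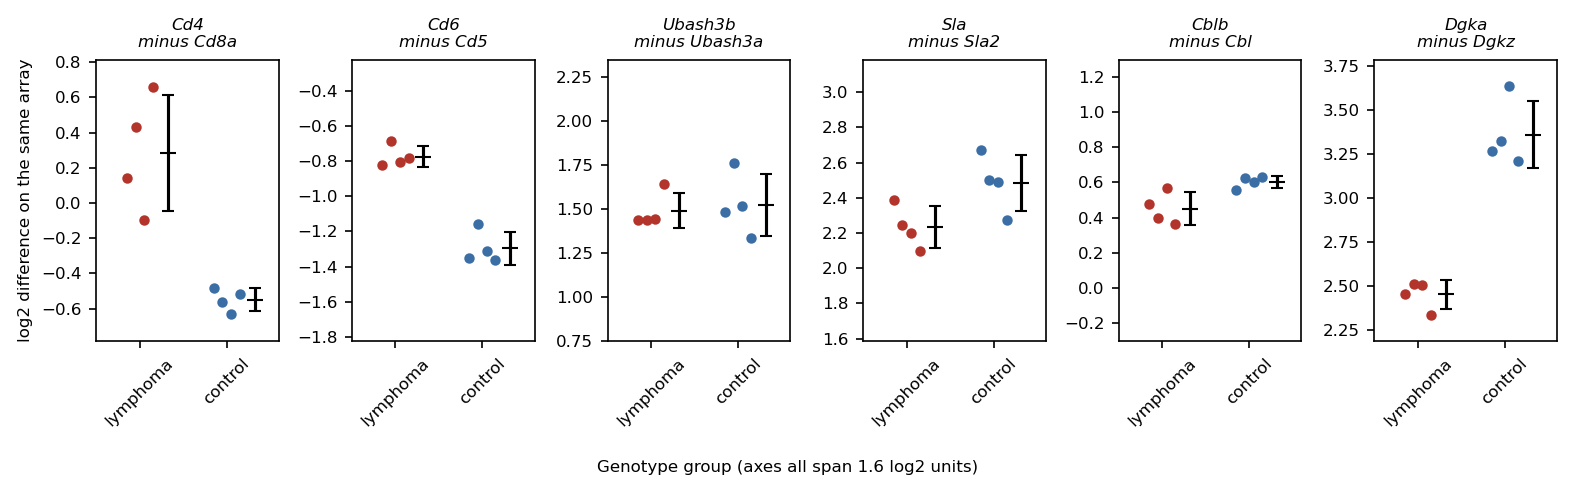
Points are the log2 differences of 2 related members on the same array, for lymphoma arrays 1 to 4 (left, red) and control arrays 1 to 4 (right, blue), with the mean and SD in black. The groups are apart for *Cd4* minus *Cd8a*, *Cd6* minus *Cd5* and *Dgka* minus *Dgkz*, and overlap for *Ubash3b* minus *Ubash3a*.

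Set beside the CD3 chains, most other members changed less or in the opposite direction. The mean change of the 4 CD3 chains was 0.51, and of the 34 other members 4 (*Cd4*, *Cd5*, *Cd6* and *Zap70*) lay above it and 30 below it. Of the 34, 27 lay below the smallest change of a CD3 chain. The share of all clusters below these changes was not counted, so the counts do not set the members apart from other genes. The members were also divided by prior knowledge of where they are mainly made, which was not measured here. The lists do not exclude other cells, and B cells may add to genes on either list. Of 23 measured genes made mainly by T and NK cells, 9 were higher (39.1%), 6 lower (26.1%) and 8 not called, with a median change of 0.02. Of 15 genes made by many leukocytes, 1, *Fyn*, was higher (6.67%), 8 were lower (53.3%) and 6 were not called, with a median of -0.24. All clusters were called higher in 18.2% and lower in 17.2% of cases. Genes made mainly by T and NK cells are found at both ends, with *Cd6* at 1.19 and *Tespa1* at -1.43.

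Among the lymphoma spleens, array 3 had the highest value of its group in 25 of 38 members (65.8%, against 23.2% of all clusters), and array 4 the lowest in 23 (60.5%, against 28.8%). The median deviation of the members from the lymphoma mean was 0.08 on array 3 and -0.10 on array 4, with 0.04 and -0.05 on arrays 1 and 2. On the control arrays it lay between -0.03 and 0.02. The mean of 11 B cell marker genes followed the same order, at 10.33, 10.22, 10.42 and 10.19 on lymphoma arrays 1 to 4, and so did the mean of 8 NK cell markers, at 7.07, 6.87, 7.24 and 6.72. The order was not particular to lymphocytes, since the mean of 8 dendritic cell markers followed it too, at 7.62, 7.54, 7.71 and 7.49. Erythroid and megakaryocyte markers were also highest on array 3, at 8.27, but lowest on array 2, at 8.09. Means of macrophage and neutrophil markers were lowest on array 3, at 10.34 and 9.59. Genes of the Y chromosome (*Uty*, *Eif2s3y*, *Kdm5d*) were also lowest on array 3, with *Kdm5d* at 7.77, 8.01, 7.17 and 7.71 in lymphoma spleens, against 9.08, 9.15, 9.04 and 8.91 in control spleens. Females carry no Y chromosome, and these values lay above the highest background median of 4.94 in both groups. That is a low bar, since the median of all clusters was 7.23 on lymphoma array 3, above *Kdm5d* there. *Uty* and *Eif2s3y*, however, lay above the median of all clusters on every array of both groups. *Eif2s3y* was at 9.48, 9.84, 8.91 and 9.56 in lymphoma spleens, against 10.73, 10.70, 10.85 and 10.64 in control spleens. The values do not settle the sex of the animals. *Uty* and *Eif2s3y* were likewise lower in all lymphoma spleens than in all control spleens (limma adjusted p = 1.41e-04 and 2.27e-05), and the part of a difference in the Y-linked genes in the results was not tested. *Cd4* ran otherwise, with its highest lymphoma values on arrays 4 and 2.

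**Figure D5:**
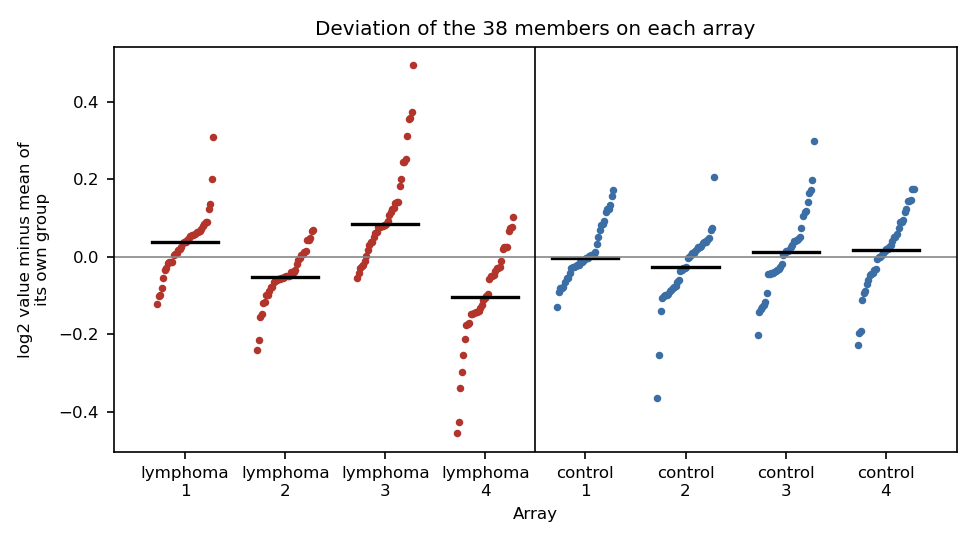
Each point is the log2 value of 1 of the 38 members on an array minus the mean of its own group, sorted within the array, for lymphoma arrays (left, red) and control arrays (right, blue), and black lines are medians. The medians are 0.08 on lymphoma array 3 and -0.10 on lymphoma array 4, and stay within -0.03 and 0.02 on the control arrays.

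Other genes of the same pathway moved in both directions. Of 41 listed genes, 34 were measured, 9 were called higher, 9 lower and 16 were not called, with a median change of 0.00. Each direction held 26.5% of the 34, against 18.2% (higher) and 17.2% (lower) of all clusters. *Vav1*, the edited gene, was at 10.52, 10.58, 10.48 and 10.39 in lymphoma spleens, against 10.29, 10.01, 10.10 and 10.32 in control spleens, without overlap and with a change of 0.31 (SE 0.09, adjusted p = 0.0149). The probes report the amount of its transcript and not the edit. The largest rises of called genes were those of *Lcp2*, which encodes the adaptor SLP-76, at 0.94 (SE 0.08, adjusted p = 1.98e-06), of the adaptor *Gab2* at 0.70 (SE 0.14, adjusted p = 0.00195) and of *Spn*, which encodes CD43, at 0.69 (SE 0.08, adjusted p = 2.61e-05). The largest falls were those of the inhibitory adaptor *Dok2*, at -1.41 (SE 0.09, adjusted p = 1.16e-07), of the kinase *Tec* at -1.08 (SE 0.08, adjusted p = 3.29e-07) and of the RAS GTPase-activating protein *Rasa2* at -0.85 (SE 0.08, adjusted p = 3.17e-06). SLP-76 is the partner that GADS brings to LAT, and *Lcp2* rose while *Grap2* fell, a difference that was not tested. Many of these genes are also used outside T cells.

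Markers of other cells of the spleen moved with the disease as well. All 11 measured B cell markers fell, with mean levels of 10.19 to 10.42 on lymphoma arrays and 11.23 to 11.31 on control arrays. Of 9 macrophage and monocyte markers 7 rose and none fell, at 10.34 to 10.45 on lymphoma arrays and 9.13 to 9.25 on control arrays. Of 9 neutrophil markers 8 rose, at 9.59 to 9.70 on lymphoma and 6.69 to 6.98 on control arrays. Of 8 NK cell markers 2 rose and 5 fell, at 6.72 to 7.24 on lymphoma and 7.18 to 7.48 on control arrays. Of 8 dendritic cell markers 2 rose and 3 fell (7.49 to 7.71 on lymphoma and 7.68 to 7.76 on control arrays), and of 5 erythroid and megakaryocyte markers 2 rose (8.09 to 8.27 on lymphoma and 7.97 to 8.16 on control arrays). No marker lay at or below the background median on every array of a group. B cells also make *Ptprc*, *Ptpn6*, *Ptpn22*, *Cbl*, *Cblb*, *Csk*, *Malt1* and *Bcl10*, and NK cells also make *Cd247*, *Cd2*, *Zap70*, *Fyn*, *Txk* and *Lat*. Genes made by many leukocytes may also come from macrophages and neutrophils. The part of any of these cells in the changes of the members was not tested.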

How the data were processed

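Total RNA from 4 lymphoma and 4 control samples of mouse spleen was read on Clariom S HT arrays, 1 array per sample. Samples were grouped by the genotype in their labels. The table deposited by the authors holds log2 values from RMA, which corrects the background, gives all arrays one distribution and joins the probes of a cluster. The submitters' processing notes name R 3.6.3. The genome build used for the probes is not given in the sources used here. Gene symbols are those of the platform annotation and may be outdated. A legend of the study speaks of triplicates and of isolated cells, but the labels give 4 arrays per genotype, and all 8 were used.

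Groups were compared in R 4.3.3 with limma 3.58.1 (lmFit, eBayes) on all 22206 clusters, control probe sets left out, with Benjamini-Hochberg adjustment and a two-sided threshold of 0.05. Pairs of members were compared within arrays by an exact two-sided permutation test over 70 labellings (scipy 1.17.1), adjusted over 6 pairs. A planned pair of *Lck* and *Fyn*, out of 7, gave no value. Per-array values were to be given for the CD3 chains, the co-receptors, called members with a log2 change of at least 1 and the members of pairs. They were extended to most other members after the values were seen. Of other pathway genes, *Vav1* and the 3 largest rises and falls among called genes were named. The members, lists and pairs were chosen with earlier results of these data known. Promoter letters were searched on both strands in RefSeq windows of GRCm38.p6. The fit and the permutation test were tested on simulated data. Alternatives covered the replicate block, cyclic loess, equal medians, another moderation, array weights, filters on dim clusters, an unmoderated model, each array left out and a stricter threshold. The number of arrays limits the precision. Probe signals of different genes are not comparable as levels.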

Additional observations from a re-analysis of the deposited data

Results flagged for a closer look

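In 4 of 88 groups of 4 values examined, 1 array stood far from the other 3 of its group, and chance alone is expected to give this in about 1 in 20 groups. *Fyn* was at 9.63 on lymphoma array 4, with the nearest lymphoma array at 9.91. *Fyn* was also at 9.51 on control array 1, with the nearest control array at 9.30, and its groups stayed apart in spite of both. *Cd3d* was at 8.83 on control array 2, with the nearest control array at 9.28. The difference of *Ubash3b* from *Ubash3a* was 1.65 on lymphoma array 4, with the nearest lymphoma array at 1.45.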

How the results depend on the processing

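Of the 24 called members, 19 kept their call under every alternative in which they were tested, 8 as higher and 11 as lower. *Trat1*, 1 of these, was removed by the filter on the dimmest 50% of clusters and has no value there. No called member turned its sign. The call was lost by *Lat*, *Ptpn22* and *Sh2d2a* under 7, 8 and 4 alternatives beside the threshold of 0.01 (adjusted p from 0.0622 to 0.102, 0.0710 to 0.168 and 0.0538 to 0.0704), and by *Cbl* and *Plcg1* only at 0.01. Of the 14 members not called, 5 (*Cd3d*, *Cd8b1*, *Dgkz*, *Sla2* and *Themis*) gained a call under at least 1 alternative. Over the arrays left out in turn, 8 to 10 members were higher and 13 to 16 lower. At 0.01, 5 other pathway genes were higher and 2166 of all clusters lower. Not called and without a settled sign were *Cd8a* (-0.022 with cyclic loess, -0.010 with equal medians, -0.101 to 0.117 with each array left out), *Ubash3a* (-0.013, -0.017, and -0.031 to 0.058), and, over the arrays left out only, *Csk* (-0.059 to 0.023), *Ubash3b* (-0.067 to 0.046) and *Sla* (-0.072 to 0.0061). Also over the arrays left out, the shifts ran from 0.71 to 0.96 for *Cd4* minus *Cd8a*, 0.49 to 0.57 for *Cd6* minus *Cd5*, -0.19 to -0.12 for *Cblb* minus *Cbl*, -0.96 to -0.82 for *Dgka* minus *Dgkz* and -0.095 to 0.046 for *Ubash3b* minus *Ubash3a*. The first 4 of these pairs passed the threshold without lymphoma array 3 (exact permutation test, adjusted p = 0.0429) and under no other array left out. All 4 then lay at the smallest possible p, and the adjusted p depends on how many pairs reach that limit. The cause of these changes was not tested. The median change of all clusters was -0.06, with -0.01 after cyclic loess and -0.08 with equal medians.

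Whether the replicate numbers link samples across the groups is not stated in the sources used here. Deviations of arrays with the same number correlated weakly, at 0.12, 0.04, 0.04 and 0.17. Yet each array except control array 3 correlated best with the array of its own number in the other group. A link by number is thus not excluded, its cause was not tested, and the main fit left the number out. With the replicate number as a block, 10 members were called higher and 15 lower, the added one being *Themis* (adjusted p = 0.0362), and no other call of a member changed. A mean over the clusters of a gene gave no separate value, since each measured member has 1 cluster.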
